A study of Mus musculus with 15 samples.

Results

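The 10 genes described here mark the basal, contractile side of the mammary epithelium: the transcription factor gene Trp63, the oxytocin receptor gene Oxtr, and 8 genes of the smooth muscle contractile apparatus, Mylk, Myl9, Myh11, Acta2, Actg2, Tpm2, Cnn1 and Tagln. Every probe set annotated to exactly 1 of these genes was taken, which gave 22 of the 45101 probe sets in the deposited table. Of these, 13 probe sets of 6 genes were bright enough to test, out of 24669 probe sets and 11477 genes tested in all. The array has 18193 genes with a probe set of their own. The rule that picks the probe sets of these genes uses no measured value. The genes themselves were chosen with earlier results of these data known, so the counts below are not those of a set picked blind.

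The cells were primary mammary tumour cells of MMTV-PyMT mice on the FVB/N strain. Their transgene places polyoma middle T, a viral oncogene, behind the promoter of mouse mammary tumour virus (MMTV), which is active in mammary epithelium. They grew as floating mammospheres, without serum and with EGF, FGF and B27, for 10 days, and then received an inhibitor or vehicle for 2 days, 12 days in all. The 4 inhibitor groups received DAPT, which blocks Notch signalling, U0126, a Mek1 inhibitor, TAE226, a Fak inhibitor, or PP2, a Src inhibitor, and the fifth group received vehicle. Each group had 3 samples titled as biological replicates, and each sample had 1 Mouse430_2 array. The transgene and the culture conditions were common to all 5 groups, including vehicle, so no sample shows these genes in normal gland or in tissue. The labels give no doses and do not say whether the replicates came from different mice or cultures. The p-values therefore measure the spread between these samples, which may be technical.

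Myoepithelial cells form the outer layer of mammary ducts and alveoli, and they squeeze milk out when oxytocin binds its receptor. The receptor raises calcium in the cell, calcium leads to activation of the myosin light chain kinase made from Mylk, and the phosphorylated light chain lets myosin pull on actin. The p63 protein made from Trp63 maintains basal epithelial cells. Genes of the contractile apparatus are classic targets of serum response factor, which binds a sequence called the CArG box together with cofactors of the myocardin family.

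Promoter windows of the members are shown because contractile genes are known as targets of serum response factor and several members rose or fell together. Of the 10 genes, 6 had an entry in the RefSeq promoter table (build GRCm38.p6), namely Oxtr, Mylk, Tpm2, Myl9, Acta2 and Cnn1. Each window holds the 250 bases before the start of the table's transcript, 5′ to 3′. Capitals mark matches to a CArG-like pattern, which is CC, then 6 bases of which at most 1 is C or G, then GG, searched on both strands. A strict CArG box, with only A and T in the middle, is a special case of that pattern.
Oxtr promoter, chr6:112489826-112490075, minus strand: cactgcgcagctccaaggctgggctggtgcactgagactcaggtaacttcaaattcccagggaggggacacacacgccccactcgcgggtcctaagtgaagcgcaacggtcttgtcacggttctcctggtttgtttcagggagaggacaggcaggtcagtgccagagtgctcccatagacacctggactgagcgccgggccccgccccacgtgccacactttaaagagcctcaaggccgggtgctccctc
Mylk promoter, chr16:34784700-34784949, plus strand: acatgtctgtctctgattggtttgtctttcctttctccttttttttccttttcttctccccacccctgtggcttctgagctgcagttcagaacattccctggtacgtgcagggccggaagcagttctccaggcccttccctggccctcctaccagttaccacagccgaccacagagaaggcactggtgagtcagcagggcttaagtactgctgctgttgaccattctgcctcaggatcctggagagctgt
Tpm2 promoter, chr4:43523555-43523804, minus strand: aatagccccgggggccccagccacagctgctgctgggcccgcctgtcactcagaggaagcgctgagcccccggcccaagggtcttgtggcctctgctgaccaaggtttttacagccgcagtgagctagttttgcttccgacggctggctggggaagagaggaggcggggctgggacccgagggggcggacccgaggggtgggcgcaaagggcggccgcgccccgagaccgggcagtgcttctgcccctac
Myl9 promoter, chr2:156775214-156775463, plus strand: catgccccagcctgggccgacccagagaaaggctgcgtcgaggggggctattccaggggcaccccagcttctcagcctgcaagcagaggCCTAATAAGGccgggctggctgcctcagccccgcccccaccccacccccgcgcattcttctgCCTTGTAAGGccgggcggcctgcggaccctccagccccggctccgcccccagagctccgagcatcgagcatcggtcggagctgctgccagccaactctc
Acta2 promoter, chr19:34255374-34255623, minus strand: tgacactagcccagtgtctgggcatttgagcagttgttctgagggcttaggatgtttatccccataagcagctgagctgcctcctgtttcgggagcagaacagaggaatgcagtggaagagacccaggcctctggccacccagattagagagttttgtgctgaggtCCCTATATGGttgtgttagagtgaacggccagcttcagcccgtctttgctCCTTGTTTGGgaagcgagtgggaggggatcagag
Myl9 held a strict CArG box, CCTAATAAGG, beginning 161 bases before the start, and a CArG-like match, CCTTGTAAGG, beginning 99 bases before it. Acta2 held 2 CArG-like matches, CCCTATATGG at 84 bases and CCTTGTTTGG at 34 bases before the start. No match to either pattern lay in the windows of Oxtr, Mylk, Tpm2 or Cnn1. A strict box was found in 1.48% of the 32536 promoter windows of this length in the table, and a CArG-like match in 8.59% of them. A match is a description of these letters only, and none of the present data measure binding.

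Most epithelial markers of both layers were bright. Of 16 luminal markers 12, and of 24 basal markers 20, were above the array median on all 15 arrays, whereas the luminal hormone receptor and regulator genes Pgr, Foxa1 and Cited1 were above it on 0 arrays and Esr1 on 4. The luminal keratins Krt8 and Krt18, the epithelial adhesion gene Epcam and the basal keratins Krt14 and Krt5 were among those above the median throughout, and the basal cadherin gene Cdh3 was above it on 3 arrays. Markers of other contractile or stromal cells were mostly dim. Of 9 pericyte and vascular smooth muscle markers, 6 were below the median on every array, including Pdgfrb and Rgs5, and of 10 fibroblast and 10 endothelial markers 8 each were. The summed signal of the pericyte list ran from 2074 to 2866 on the inhibitor arrays and from 1914 to 2134 on the vehicle arrays, and most of it came from Notch3 and Mcam. Mcam, which encodes a cell adhesion molecule also found outside blood vessels, rose under every inhibitor, by 1.57 under DAPT, 1.48 under U0126, 1.96 under TAE226 and 1.45 under PP2 on the log2 scale. Notch3, a Notch receptor gene, fell by 0.69 under DAPT, 0.22 under TAE226 and 0.27 under PP2, and gave 0.02 under U0126. The medians of the 3 tested genes of that list were -0.29 for DAPT, 0.02 for U0126, -0.22 for TAE226 and -0.27 for PP2. The part of these genes in the results below was not tested. RNA from fewer cells of a type and less RNA per cell cannot be told apart in these bulk samples.

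The name of the set held for only some of its members. The deposited signals are MAS5 intensities on a linear scale, with each array scaled to a trimmed mean of 500, and the array medians lay between 65.7 and 90.8. A probe set was tested if it was above its array's median on at least 3 of the 15 arrays. Cnn1, Tagln, Myh11 and Actg2, which are among the defining genes of differentiated smooth muscle and myoepithelium, were below the median on every array and were not tested. The gene for myocardin, Myocd, was below it on every array as well, between 4.24 and 18.8. The genes are therefore called basal and contractile genes below, and no myoepithelial identity is drawn from them.

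**Figure D1:**
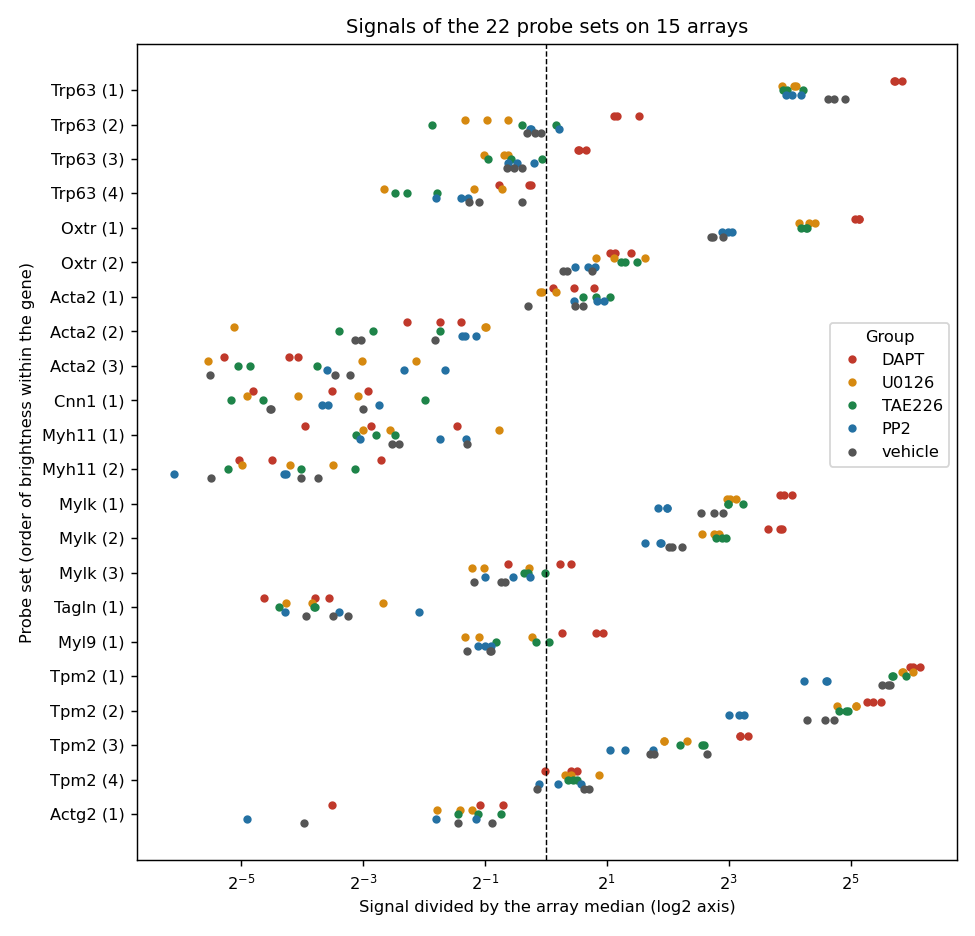
Signal of each of the 22 probe sets divided by the median of its array, on a log2 axis, with 3 points per group (1 per array) and the probe sets of a gene numbered from the brightest. The dashed line is the array median: 8 probe sets lay above it on all 15 arrays and 8 on 0 arrays, among them every probe set of Cnn1, Myh11, Tagln and Actg2.

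The untested members are given by their range. Cnn1, which encodes calponin, an actin-binding protein that slows myosin, lay between 2.43 and 23 over the 15 arrays. Tagln, which encodes the actin-bundling protein transgelin, lay between 3.1 and 21.4. Actg2, a smooth muscle actin gene, lay between 3.06 and 50.7. Myh11, the smooth muscle myosin heavy chain gene, had 2 probe sets, whose signals lay between 5.43 and 43 and between 1.27 and 12.6. At such levels the arrays allow no statement on whether an inhibitor changed these genes.

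Of the 6 genes that could be tested, 5 were higher under DAPT than under vehicle and none lower, where 33.1% of all tested genes were called in either direction and 16.3% were called higher. Under TAE226, 5 were higher and 1 lower (30.1% of all tested genes called), and under U0126 3 were higher and 1 lower (39.1% called). Under PP2, 1 was higher and 3 were lower (52.1% called). The test was limma on log2 signals, with Benjamini-Hochberg adjustment over all 24669 probe sets and a threshold of 0.05. The median log2 fold change of the 6 genes was 1.23 for DAPT, 0.31 for U0126, 0.71 for TAE226 and -0.11 for PP2, against 0.02, 0.00, 0.02 and 0.02 over all tested genes. All 4 comparisons used the same 3 vehicle arrays, so they are not independent of each other. Myl9 passed the filter only through DAPT arrays and 1 TAE226 array, so it could enter the count only by being high there. With Myl9 at its lower bound, or at 0 where no fold could be given, the medians were 0.98 for DAPT, 0.19 for U0126, 0.50 for TAE226 and -0.24 for PP2.

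The balance of these counts shifted with the scaling of the arrays. Centring each array on its median moved the fold changes of all probe sets by a median of -0.13 for DAPT, -0.08 for U0126, -0.25 for TAE226 and -0.22 for PP2. The share of called probe sets that were higher was then 28% in place of 56% for DAPT, 36.3% in place of 50.6% for U0126, 14.3% in place of 59.8% for TAE226 and 28.1% in place of 55.4% for PP2. The members called under that scaling were 5 higher and 0 lower for DAPT, 2 higher and 1 lower for U0126, 2 higher and 1 lower for TAE226, and 0 higher and 3 lower for PP2. The rises under DAPT and the falls under PP2 were thus the same in number under both scalings, and the rises under U0126 and TAE226 were fewer. The ratio of 3′ to 5′ signal of the actin control, a measure of RNA integrity, averaged 1.57 ± 0.04 under PP2, 1.35 ± 0.07 under DAPT, 1.28 ± 0.07 under U0126 and 1.33 ± 0.07 under TAE226, against 1.42 ± 0.06 under vehicle (SD, n = 3 each). It was highest on the PP2 arrays, where Mylk and Tpm2 were lowest, and its part in the results was not tested.

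**Figure D2:**
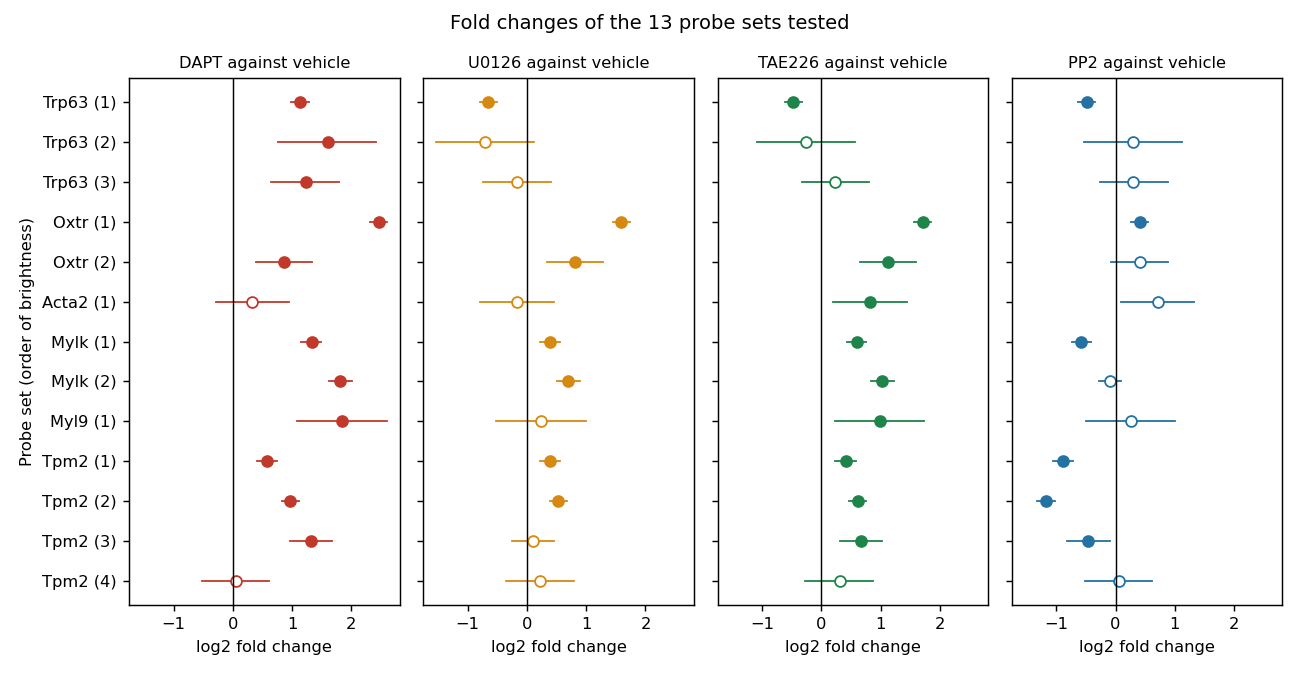
Log2 fold change against vehicle of the 13 tested probe sets, with 95% confidence intervals as lines, 1 panel per inhibitor, and probe sets numbered by brightness within the gene. Filled points passed an adjusted p of 0.05 in limma: 11 of 13 for DAPT, all higher (29.5% of all tested probe sets called), and 6 of 13 for PP2, of which 5 were lower (48.9% called). Trp63 (3) was above the array median on DAPT arrays alone, and Trp63 (2) and Myl9 mainly on them. The filter therefore favoured these DAPT calls, and the count for DAPT is inflated by it.

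Trp63, the basal transcription factor gene, stood highest under DAPT and below vehicle under the other 3 inhibitors. Its brightest probe set (1418158_at) read 4388, 4343 and 4305 on the DAPT arrays, 1219, 1223 and 1317 on the U0126 arrays, 1624, 1310 and 1343 on the TAE226 arrays, 1428, 1386 and 1433 on the PP2 arrays, and 1999, 1987 and 1941 on the vehicle arrays. No array of any inhibitor group overlapped the vehicle arrays, and the DAPT arrays lay apart from all the others. Such separation from vehicle was also seen for 43.3% of all tested probe sets under DAPT and 56.2% under PP2. These shares apply to the genes below as well. None is given for U0126 or TAE226, so separation from vehicle under these 2 inhibitors cannot be read as unusual, here or below. The gene was 2.2-fold higher under DAPT than under vehicle (log2 fold change 1.14, SE 0.07, adjusted p 3.85e-09). It fell by 0.66 on the log2 scale under U0126 (adjusted p 1.49e-06), by 0.48 under TAE226 (7.57e-05) and by 0.48 under PP2 (2.5e-05). In the order of levels, TAE226 and PP2 could not be separated (difference 0.00, 95% interval -0.14 to 0.15), and U0126 minus PP2 was -0.18 (adjusted p 0.0422). That last call was lost under quantile normalization (-0.16, adjusted p 0.0615), under median centring (-0.04, adjusted p 0.804) and when any 1 of 10 of the 15 arrays was left out, so the 2 groups were not separated firmly. The calls against vehicle were the same under both scalings.

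The other Trp63 probe sets were far dimmer. Probe set 1459581_at read 189, 220 and 178 on the DAPT arrays, against 61.6, 58.4 and 74.4 on the vehicle arrays, and 1452027_a_at read 122, 110 and 129 against 57.9, 42.4 and 54.9. Their vehicle arrays were all below the median, so the rises under DAPT were at least 2.66-fold (adjusted p 0.00568) and at least 1.64-fold (adjusted p 0.0027). Probe set 1452027_a_at passed the filter only through the 3 DAPT arrays, and 1459581_at through those, 1 TAE226 array and 1 PP2 array. The filter thus favoured the DAPT calls of both, which add nothing independent to the brightest probe set. Neither passed the test under U0126, TAE226 or PP2, where 1459581_at gave 0.30 for PP2 with a 95% interval of -0.53 to 1.13. The falls of Trp63 under these 3 inhibitors thus rest on 1 probe set. The fourth Trp63 probe set was below the median on every array.

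Oxtr, the receptor that couples oxytocin to contraction, was higher under all 4 inhibitors. Probe set 1440888_at read 2797, 2670 and 2880 on the DAPT arrays, 1664, 1550 and 1358 on the U0126 arrays, 1690, 1621 and 1648 on the TAE226 arrays, 682, 670 and 655 on the PP2 arrays, and 495, 493 and 523 on the vehicle arrays. Every inhibitor array was above every vehicle array, the DAPT arrays being highest and the PP2 arrays closest to vehicle. The gene was 5.52-fold higher under DAPT (log2 fold change 2.47, SE 0.07, adjusted p 5.77e-13), 3.02-fold higher under U0126 (1.59, adjusted p 2.58e-11), 3.28-fold higher under TAE226 (1.71, adjusted p 1.34e-10) and 1.33-fold higher under PP2 (0.41, adjusted p 0.000114). The rise under DAPT exceeded that under TAE226 by 0.75 (adjusted p 7.95e-07). U0126 and TAE226 did not differ beyond their spread (difference -0.12, 95% interval -0.27 to 0.02, adjusted p 0.191). The rise under PP2 was within the reach of the scaling, since it became 0.19 with an adjusted p of 0.115 after median centring.

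A second Oxtr probe set (1426000_at) was dimmer and repeated the direction of the larger changes. It read 220, 158 and 180 on the DAPT arrays, 260, 159 and 136 on the U0126 arrays, 214, 239 and 213 on the TAE226 arrays, 152, 127 and 127 on the PP2 arrays, and 97, 80.5 and 134 on the vehicle arrays. It rose by 0.86 under DAPT (adjusted p 0.00839), 0.81 under U0126 (0.0104) and 1.13 under TAE226 (0.00132). The U0126 call was lost without U0126 replicate 1 (0.54, adjusted p 0.063), without vehicle replicate 2 (0.64, adjusted p 0.0553) and with only the 2 groups in the fit (adjusted p 0.0523). Under PP2 it gave 0.41 (adjusted p 0.146). The order among inhibitors differed from that of the brighter set: no pair of neighbouring groups in its order differed, and DAPT minus TAE226 was -0.26 (95% interval -0.74 to 0.21). The difference between DAPT and the other inhibitors in Oxtr thus came from the brighter probe set alone.

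Mylk, the kinase gene that switches on contraction, was highest under DAPT and lowest under PP2. Probe set 1425506_at read 1192, 1253 and 1222 on the DAPT arrays, 652, 636 and 624 on the U0126 arrays, 818, 672 and 721 on the TAE226 arrays, 342, 324 and 312 on the PP2 arrays, and 513, 492 and 456 on the vehicle arrays. The 3 groups above vehicle and the PP2 group below it did not overlap the vehicle arrays. The gene was 2.51-fold higher under DAPT (log2 fold change 1.33, SE 0.08, adjusted p 2.46e-09), 1.31-fold higher under U0126 (0.39, adjusted p 0.000939) and 1.51-fold higher under TAE226 (0.60, adjusted p 2.92e-05), and it fell by 0.58 under PP2 (adjusted p 1.33e-05). TAE226 and U0126 were neighbours that did not pass the test of their difference (adjusted p 0.0546). After median centring the rise under U0126 was 0.31 with an adjusted p of 0.0503.

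The second Mylk probe set (1425505_at) gave the rises again, but not the fall under PP2. It read 1203, 1116 and 1015 on the DAPT arrays, 561, 524 and 450 on the U0126 arrays, 671, 630 and 629 on the TAE226 arrays, 320, 280 and 289 on the PP2 arrays, and 320, 308 and 318 on the vehicle arrays. Its log2 fold changes were 1.81 for DAPT, 0.69 for U0126 and 1.03 for TAE226, all called, the largest adjusted p being 1.74e-05. Under PP2 it gave -0.09, with a 95% interval of -0.28 to 0.10 that leaves out the size seen with the first probe set. The fall of Mylk under PP2 therefore depends on which probe set is read. The third Mylk probe set was above the median on 2 arrays, both DAPT arrays, and so just missed the filter.

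Myl9 encodes a regulatory myosin light chain, the substrate of the kinase made from Mylk, and only under DAPT was it above the array median on all 3 arrays. Its only probe set (1452670_at) read 148, 145 and 98.5 on the DAPT arrays, 71, 29.2 and 35.5 on the U0126 arrays, 90.3, 75.8 and 51.5 on the TAE226 arrays, 43.4, 49 and 36.4 on the PP2 arrays, and 40.1, 26.9 and 42.2 on the vehicle arrays. The 3 DAPT arrays were above the array median, as was 1 TAE226 array, and no U0126, PP2 or vehicle array was. Because vehicle was dim, the rise under DAPT was at least 1.76-fold (adjusted p 0.00096, measured mean log2 signals 7.00 under DAPT and 5.16 under vehicle). TAE226 gave 0.99 with an adjusted p of 0.0485, a call that was lost under 18 of 23 alternative settings. U0126 and PP2 gave 0.23 (adjusted p 0.67) and 0.26 (adjusted p 0.578) with both groups dim, so these say little of the gene.

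Acta2, the smooth muscle actin gene used most often to mark myoepithelial cells, was close to the array median and variable. Probe set 1416454_s_at read 145, 83 and 112 on the DAPT arrays, 94.1, 70.1 and 71.9 on the U0126 arrays, 133, 149 and 187 on the TAE226 arrays, 154, 177 and 109 on the PP2 arrays, and 106, 53.6 and 119 on the vehicle arrays. Only the TAE226 arrays lay wholly above the vehicle arrays, and vehicle replicate 2 was well below the other 2 vehicle arrays. The log2 fold change was 0.82 for TAE226 (SE 0.29, adjusted p 0.0462), and it was 0.46 with an adjusted p of 0.23 without vehicle replicate 2. The call was lost under 13 of 23 settings. Acta2 did not pass the test under DAPT (0.33, 95% interval -0.29 to 0.95), U0126 (-0.17, -0.79 to 0.45) or PP2 (0.71, 0.09 to 1.33, adjusted p 0.0543). In a probe set with this suffix the probes can also match transcripts of related genes, so the reading may include other actins. The other 2 Acta2 probe sets were below the median on every array.

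Tpm2, which encodes a tropomyosin that lies along actin filaments and gates myosin, fell under PP2 and rose under the other 3 inhibitors. Probe set 1419738_a_at read 5415, 5353 and 5152 on the DAPT arrays, 4841, 4722 and 4384 on the U0126 arrays, 4429, 5045 and 4688 on the TAE226 arrays, 2099, 1714 and 1937 on the PP2 arrays, and 3488, 3234 and 3936 on the vehicle arrays. The PP2 arrays were lower, and those of the other inhibitors higher, than every vehicle array. Tpm2 fell by 0.89 under PP2 (SE 0.08, adjusted p 1.54e-07) and rose by 0.58 under DAPT (adjusted p 4.53e-05), 0.39 under U0126 (0.00121) and 0.41 under TAE226 (0.00112). DAPT minus TAE226 was 0.17 (adjusted p 0.176) and DAPT minus U0126 was 0.19 (adjusted p 0.0729), so on this probe set neither difference passed. The difference from U0126 did pass under quantile normalization (0.24, adjusted p 0.0311) and without vehicle replicate 3 (adjusted p 0.0472). After median centring TAE226 gave 0.16 with an adjusted p of 0.271.

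A second bright Tpm2 probe set (1425028_a_at) moved the same way and further. It read 3426, 3443 and 3126 on the DAPT arrays, 2280, 2475 and 2594 on the U0126 arrays, 2643, 2617 and 2544 on the TAE226 arrays, 779, 733 and 746 on the PP2 arrays, and 1821, 1749 and 1537 on the vehicle arrays. It fell by 1.17 under PP2 (adjusted p 8.25e-10) and rose by 0.97 under DAPT, 0.53 under U0126 and 0.62 under TAE226, the largest of these adjusted p-values being 1.65e-05. On this set DAPT was above TAE226 by 0.36 (adjusted p 0.00159) and above U0126 by 0.44 (adjusted p 9.04e-05). Another set (1449577_x_at), some of whose probes may match other genes, rose by 1.32 under DAPT (adjusted p 2.4e-05) and by 0.67 under TAE226 (0.00794). There DAPT was above U0126 by 1.22 (adjusted p 3.58e-05) and above TAE226 by 0.65 (adjusted p 0.0142). This set gave 0.10 under U0126 (adjusted p 0.704), and its TAE226 call was lost after median centring (0.41, adjusted p 0.138). It also fell by 0.46 under PP2, but its PP2 arrays overlapped the vehicle arrays, and without vehicle replicate 2 the value was -0.24 with an adjusted p of 0.225. That call was also lost without PP2 replicate 1 (adjusted p 0.0918) or 2 (adjusted p 0.149). The fourth set (1419739_at), near the array median, passed in no comparison, with 95% intervals of -0.52 to 0.62 for both DAPT and PP2.

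**Figure D3:**
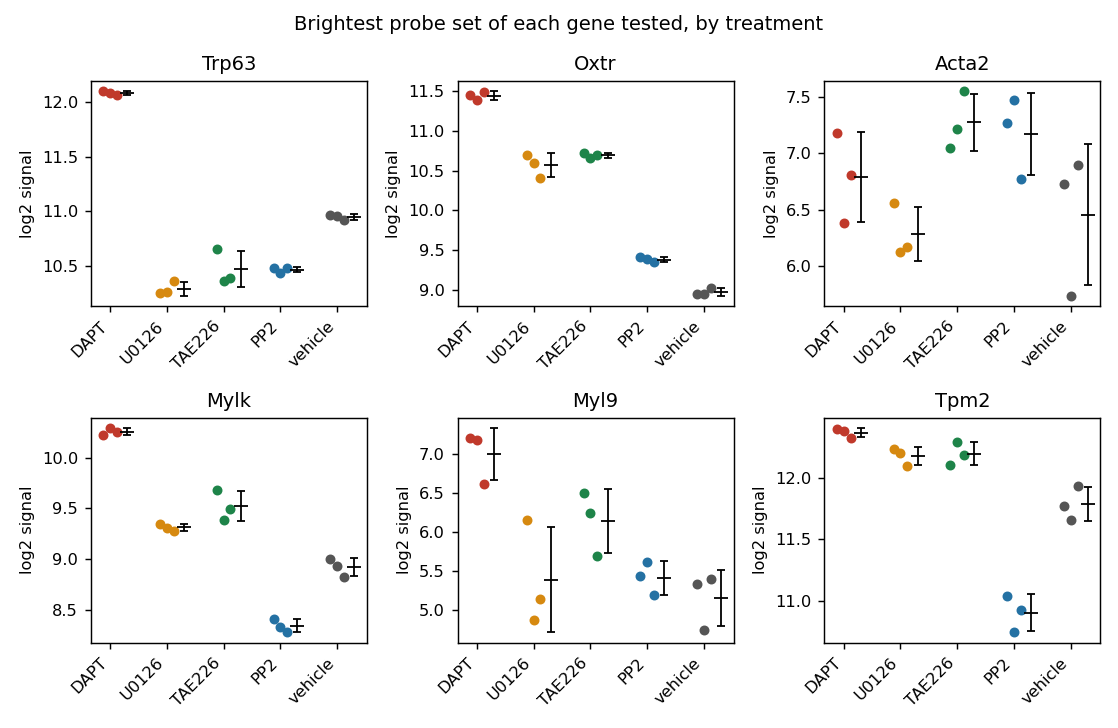
Log2 signal of the brightest tested probe set of each of the 6 genes, by treatment, with 1 point per array and the mean ± SD beside it (n = 3 each); each panel has its own axis. Oxtr and Mylk were highest under DAPT, Mylk and Tpm2 were lowest under PP2, Trp63 was below vehicle under 3 inhibitors, and the DAPT and PP2 arrays of Acta2 overlapped its vehicle arrays.

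Set against each other on the brightest probe sets, the inhibitors were ordered differently from gene to gene. DAPT was called above every other inhibitor for Oxtr, Mylk and Trp63, and PP2 below every other for Oxtr, Mylk and Tpm2. For Acta2, DAPT minus PP2 was -0.38 (adjusted p 0.35). DAPT was higher than PP2 for 5 of 6 genes and lower for none (20.7% of all tested genes called higher, 38% in either direction). It was higher than U0126 for 4 genes (22.2% higher, 43% either way) and than TAE226 for 3 genes (10.6% higher, 21% either way). Without Myl9, which was dim under PP2 and U0126 and passed the filter through DAPT arrays and 1 TAE226 array, DAPT was higher than PP2 for 4 of 5 genes and than U0126 for 3 of 5. U0126 was higher than PP2 for 3 genes, Oxtr by 1.18, Mylk by 0.97 and Tpm2 by 1.28, and lower for Trp63 and Acta2 (54.7% called). The Trp63 call is the one lost under both other scalings, and the Acta2 call (-0.88, adjusted p 0.0192) was lost without U0126 replicate 2 or 3 or PP2 replicate 1 or 2 (adjusted p 0.0555 to 0.0808). TAE226 was higher than PP2 for the same 3 genes, Oxtr by 1.31, Mylk by 1.17 and Tpm2 by 1.30 (41.8% called). Between U0126 and TAE226 only Acta2 passed, at -0.99 with an adjusted p of 0.0166, where 35.6% of all tested genes were called. It was lost without U0126 replicate 2 (adjusted p 0.0577) or TAE226 replicate 3 (adjusted p 0.0699). For Oxtr, Mylk, Tpm2 and Trp63, U0126 minus TAE226 was -0.12, -0.21, -0.02 and -0.18, none of which passed the test, with 95% intervals reaching to -0.37. The Trp63 difference passed when any 1 of 3 arrays was left out, and the Mylk difference when any 1 of 2 arrays was. On dimmer probe sets U0126 minus TAE226 passed for Mylk (1425505_at, -0.34, adjusted p 0.0101) and for Tpm2 (1449577_x_at, -0.57, adjusted p 0.0186). Non-overlap of the arrays is common in this series: it was seen for 43.3% of all tested probe sets between DAPT and vehicle and for 56.2% between PP2 and vehicle.

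The genes most like each member were sought among 9702 genes above the median on all 15 arrays, by Pearson's r of log2 signals. The arrays fall into 5 groups, so r mainly compares group levels and is given without a p. Trp63 was followed most closely by Mir205hg (r = 0.973), Col4a6 (0.965) and Il7 (0.948). Mir205hg is the host gene of a microRNA known from basal epithelium, and Col4a6 encodes a basement membrane collagen chain. For Oxtr they were Fbxo32 (0.989), Osr1 (0.955) and Aox1 (0.938), of which Fbxo32 encodes a ubiquitin ligase subunit known from muscle wasting. For Mylk they were Ctnnal1 (0.976), Chka (0.972) and Bcl11b (0.936), and Bcl11b encodes a transcription factor of basal mammary cells. For Tpm2 they were Sparc (0.978), Vcl (0.975) and Ehd2 (0.964). Sparc encodes a matrix glycoprotein made by basal cells, and Vcl encodes vinculin, which links actin to adhesions.

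Among other smooth muscle and contractile genes, more were called higher than lower under DAPT, U0126 and TAE226, and the scaling changed how many. Of 18 such genes 12 were tested, and of these 7 were higher and 2 lower under DAPT, 6 and 1 under U0126, 6 and 1 under TAE226, and 3 and 4 under PP2, with median log2 fold changes of 0.33, 0.36, 0.27 and 0.00. Over all tested genes, 33.1% were called in either direction under DAPT, 39.1% under U0126, 30.1% under TAE226 and 52.1% under PP2. The counts of this list and of the lists below are to be read against these shares. Tpm1, a tropomyosin gene, rose by 0.63 under DAPT, 0.63 under U0126 and 0.92 under TAE226. The actin crosslinker gene Flna rose by 0.62 under DAPT and 0.75 under TAE226, and Cald1, which encodes the actin-binding caldesmon, rose by 0.66 under U0126. The integrin gene Itga8 rose by 0.65 under DAPT and 0.75 under U0126. Pdlim7, an actin-associated adaptor gene, was among the 2 genes lower under DAPT and fell there by 0.65 (adjusted p 0.00022). Under PP2, Vcl fell by 0.51 and Pdlim7 by 1.14, whereas Pdlim3 was at least 3.74-fold higher. Pdlim3 was above the median on the 3 PP2 arrays alone, so it passed the filter only by being high there, and without it 2 genes of the list were higher under PP2. After median centring 3 of these 12 genes were higher and 2 lower under DAPT, 5 and 1 under U0126, 2 and 1 under TAE226, and 1 and 4 under PP2, with medians of 0.19, 0.27, 0.02 and -0.22. Lmod1, Synm, Synpo2 and Kcnmb1, which are expressed in differentiated muscle, were below the median on every array, like Cnn1 and Tagln.

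Non-muscle actomyosin genes and paralogs of the members were called higher more often than lower under U0126 and TAE226. The list is mostly of cytoskeletal genes, but it also holds the muscle actin genes Acta1 and Actc1 and the kinase gene Mylk3. Of these only Acta1, above the median on 9 arrays, was tested. Of 14 tested, 3 were higher and 3 lower under DAPT, 8 and 0 under U0126, 7 and 0 under TAE226, and 3 and 4 under PP2, with medians of 0.09, 0.30, 0.20 and 0.00. The part of this list called under PP2 was near the share of all tested genes called there (52.1%). The calponin gene Cnn2 rose by 0.78 under DAPT, 0.86 under U0126 and 0.76 under TAE226 and fell by 0.60 under PP2. The transgelin gene Tagln2 fell by 0.70 under DAPT and 0.53 under PP2, and Myh10, a non-muscle myosin gene, fell by 0.70 under PP2. The 3 genes higher under DAPT were Cnn2, Myh9 (0.28) and Myl6 (0.35). After median centring 1 was higher and 2 lower under DAPT, where Myh9 (0.15) and Myl6 (0.22) no longer passed, 3 and 0 under U0126, 2 and 0 under TAE226, and 0 and 5 under PP2. The medians were then -0.04, 0.22, -0.05 and -0.22.

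**Figure D4:**
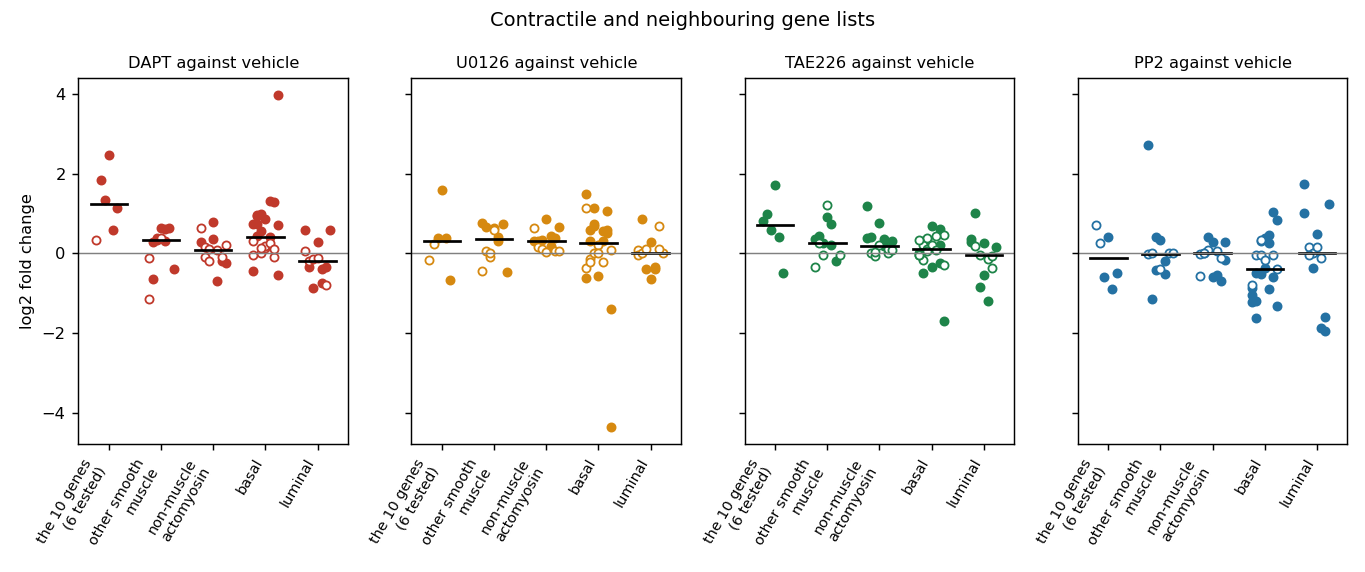
Log2 fold change against vehicle of each tested gene (brightest probe set), by gene list, 1 panel per inhibitor. Filled points passed an adjusted p of 0.05, bars are list medians, and the lowest U0126 point is Krt15, a fitted value for a gene that was dim there.

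The calls of serum response factor signalling genes depended on the scaling. Of 8 tested genes of serum response factor, its cofactors and regulators, 2 were higher and 2 lower under DAPT, 1 and 1 under U0126, 3 and 0 under TAE226, and 4 and 2 under PP2. Srf itself rose by 0.53 under DAPT (adjusted p 0.000136) and 0.44 under TAE226 (0.00075). Fhl2, which encodes a cofactor, fell by 0.29 under DAPT, 0.40 under U0126 and 0.75 under PP2, and the myocardin-related gene Mrtfb rose by 0.43 under PP2. After median centring 1 was higher and 2 lower under DAPT, 0 and 2 under U0126, 1 and 0 under TAE226, and 0 and 2 under PP2. Srf under TAE226 (0.19, adjusted p 0.202) and Mrtfb under PP2 (0.21, adjusted p 0.0764) no longer passed there.

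Genes of oxytocin signalling other than the receptor were called in both directions under each inhibitor, with the balance under TAE226 set by the scaling. Of 10 tested genes, 2 were higher and 3 lower under DAPT, 1 and 5 under U0126, 2 and 1 under TAE226, and 3 and 4 under PP2. The medians of -0.05, -0.25, 0.00 and -0.07 became 0.02, -0.12, 0.00 and 0.04 with dim genes at their bounds. The part of this list called under TAE226 was near the share of all tested genes called there (30.1%). Plcb1, a phospholipase of the pathway, rose by 0.53 under DAPT and fell by 0.35 under U0126. Itpr2, a calcium release channel gene, fell by 0.76 under U0126 and rose by 0.79 under PP2, and Gnaq, the G protein subunit that the receptor uses, rose by 0.56 under PP2. Grk5, a receptor kinase gene, rose by 0.31 under DAPT, 0.89 under U0126 and 0.60 under TAE226. Rgs2, an inhibitor of the same G protein, fell by 0.44 under DAPT, 1.06 under U0126 and 0.60 under PP2. After median centring 1 was higher and 5 lower under DAPT, 1 and 4 under U0126, 1 and 5 under TAE226, and 2 and 5 under PP2, with medians of -0.18, -0.33, -0.25 and -0.29. Grk5 under DAPT (0.17, adjusted p 0.293) no longer passed there.

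Among basal epithelial and p63-linked genes, more were higher than lower under DAPT, as Trp63 was, and also under U0126, where Trp63 was lower. Of 24 tested, 13 were higher and 2 lower under DAPT, 11 and 4 under U0126, 5 and 4 under TAE226, and 6 and 11 under PP2, with medians of 0.42, 0.26, 0.11 and -0.38. With dim genes at their bounds the medians were 0.14 for U0126 and -0.27 for PP2, and unchanged for DAPT and TAE226. The basal keratin gene Krt15 rose by 3.97 under DAPT (adjusted p 5.76e-06), fell by 1.69 under TAE226 and was at least 2.97-fold lower under U0126, where it was dim. Jag2, which encodes a Notch ligand, rose by 1.32 and the growth factor receptor gene Fgfr2 by 1.30 under DAPT. Neither rise was particular to DAPT. Fgfr2 was also called higher under U0126 (1.06), TAE226 (0.61, lost after median centring) and PP2 (1.04), and Jag2 under U0126 (0.55) and PP2 (0.46). The 2 genes lower under DAPT were Krt17 (-0.43) and Sfn (-0.54), and Krt14 gave -0.08 (adjusted p 0.399). Under U0126, Krt17 rose by 1.48 and Vim, the intermediate filament gene of mesenchymal and basal cells, by 1.13, while Trp63 was lower. Id4, among the 4 genes of the list lower under U0126, fell by 1.38. Under PP2, Krt5 fell by 1.20, Sparc by 1.63 and Sfn by 1.32. Id4, like Fgfr2, was among the 6 genes higher under PP2 and rose by 0.83. After median centring 11 of the 24 were higher and 2 lower under DAPT, 8 and 4 under U0126, 1 and 6 under TAE226, and 2 and 13 under PP2, with medians of 0.28, 0.18, -0.14 and -0.60.

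Luminal markers were called in both directions under each inhibitor. Of 13 tested, 3 were higher and 5 lower under DAPT, 2 and 4 under U0126, 5 and 3 under TAE226, and 4 and 4 under PP2. Among the 4 lower under PP2 was Esr1 (-1.95, adjusted p 0.0178), with both groups dim, so that call says little of the gene. After median centring 2 were higher and 5 lower under DAPT, 1 and 4 under U0126, 1 and 5 under TAE226, and 3 and 5 under PP2, so the balance under TAE226 turned. Under DAPT the luminal keratin gene Krt19 fell by 0.87, while Gata3, a luminal transcription factor gene, rose by 0.59. Under PP2, Kit, a receptor of luminal progenitors, rose by 1.75 and Ly6d fell by 1.87.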

How the data were processed

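RNA was measured on 15 Affymetrix Mouse430_2 arrays, 3 for each of 5 groups, each from 250 ng of total RNA amplified from the 3′ end, per the labels' protocols. The authors deposited 1 table of linear intensity values, and the submitters' processing notes name Affymetrix Expression Console and MAS5. The sources used here give no versions of them. From the values, every array had a mean of 500 after 2% of probe sets was trimmed at each end. Of 45101 probe sets, 64 were controls, 34945 had 1 gene in the platform annotation, 932 had several and 9160 had none.

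Intensities were put on the log2 scale without a pseudocount and analysed by limma (3.58.1, under R 4.3.3), using all 15 arrays, a mean for each group and an intensity trend in eBayes (10 residual and 5.84 prior degrees of freedom). Tests were two-sided, with Benjamini-Hochberg adjustment over 24669 probe sets above their array median on at least 3 arrays. A fold is given as "at least" where all 3 arrays of the dim group were below the median. It divides the bright group's mean signal by the mean of the dim group's array medians, both taken on the log2 scale. Confidence intervals are 95%, and the number of arrays limits their precision. The fit was tested on simulated data for DAPT against vehicle. It recovered 28 of 100 log2 changes of 0.5 and 72 of 100 of 1, with 5 false calls. Many true changes were thus missed, so a difference that did not pass is not shown to be absent. The simulation changed far fewer probe sets than were called in the data, so these rates may not carry over.

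A gene is represented by its brightest tested probe set. All 10 members are named. From each other list the up to 4 called genes with the greatest change per comparison could be named, and for each member above the median on all arrays the 3 genes with the highest correlation. In the basal list, values of named genes under other inhibitors and some genes of the opposite direction are given besides. A list of contraction regulators is not reported here. Members and lists were chosen with earlier results of these data known. Alternatives covered scaling, pseudocount, filters, the variance trend, the probe set per gene, the replicate number as a block and each array left out. The labels and the file give no batch. Arrays of 1 group were not copies of each other: their median absolute log2 difference over probe sets lay between 0.119 and 0.173, against 0.187 to 0.395 between groups.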

Additional observations from a re-analysis of the deposited data

How the results depend on the processing

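Of the 24 results for the 6 tested genes against vehicle, 19 passed the test, and 10 of these passed under every alternative run. The calls for Oxtr, Mylk, Tpm2 and Trp63 under DAPT were among them, each run under 25 settings. That of Myl9 under DAPT was too, but it was run under 23. Myl9 passed the filter only through DAPT arrays and 1 TAE226 array, so the filter favoured this call and it adds no independent support. After median centring, 3 of the 6 genes passed under TAE226 in place of 6, since Tpm2, Acta2 and Myl9 no longer did; this setting shifts every fold change down. With the second brightest probe set of a gene in place of the brightest, 1 gene passed under PP2 in place of 4, and Trp63 under PP2 turned to 0.30 (adjusted p 0.546) and Oxtr for DAPT against TAE226 to -0.26 (adjusted p 0.488). Among the other lists, Rock1 under TAE226 turned to -0.06 (adjusted p 0.692) after median centring. The cause of these changes of direction was not tested. When each array was left out in turn, the number of genes called was 5 for DAPT, 4 for U0126, 4 to 6 for TAE226, 4 to 5 for PP2 and 5 to 6 for the difference among the 5 groups, and 18 to 23 differences passed between inhibitors (21 with all arrays). Among the calls of the brightest probe sets against vehicle, those of Myl9 and Acta2 under TAE226 were lost and that of Acta2 under PP2 gained in this way. Between inhibitors, Trp63 and Acta2 for U0126 against PP2 and Acta2 for U0126 against TAE226 were lost. Gained were Trp63, Mylk and Myl9 for U0126 against TAE226 and Tpm2 for DAPT against U0126. Same-numbered arrays of an inhibitor and vehicle had correlations of -0.24 to 0.19 in their deviations from the group means. Differently numbered arrays were not compared, and each group has 3 arrays. These values therefore cannot say whether the replicate numbers pair the samples. With the replicate number as a block, 6 genes passed under TAE226, 5 under DAPT and 4 each under U0126 and PP2, as without it, and 21 differences passed between inhibitors. Over all probe sets the block gave 6977 calls for DAPT, 7954 for U0126, 6807 for TAE226 and 11878 for PP2. Signals near the array median limit what can be said of Acta2 and Myl9, and signals below it leave Cnn1, Tagln, Myh11 and Actg2 without a test.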
